A study of Mus musculus with 10 samples.

Results

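Fast skeletal muscle genes are 10 genes that encode contractile and calcium-handling proteins of fast-twitch skeletal fibres: Myh1, Myh2, Myh4, Tnnt3, Tnni2, Tnnc2, Actn3, Mylpf, Pvalb and Atp2a1. They were taken by gene symbol, and all 10 were found among the 78298 genes of a bulk RNA sequencing table of mouse hearts. The genes were chosen by their levels in these same libraries, above all in wild-type library 1 and knockout library 4, so the levels by library below are a description and carry no test. Hearts came from female mice on a C57BL/6J background, with 5 libraries carrying the wild-type label and 5 the label of a germline knockout of p38δ (the kinase gene Mapk13), and every mouse in both groups had received doxorubicin at 30 mg/kg into the peritoneum 72 h earlier. Age and the part of the heart taken were not found in the labels, no mouse without the drug was analysed here, and the comparison asks which transcripts differ between these genotypes after the drug. Wild-type libraries keep the numbers of their labels, and knockout libraries, whose labels carry no replicate number, are numbered in deposit order.

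Vertebrate striated muscles build the same sarcomere from different genes. Heart muscle uses the myosins Myh6 and Myh7, the troponins Tnnt2, Tnni3 and Tnnc1, the light chain Myl2 and the calcium pump Atp2a2, whereas fast skeletal fibres use Myh1, Myh2 and Myh4 for the myosin motor, Tnnt3, Tnni2 and Tnnc2 for the calcium switch on the thin filament, Mylpf for the regulatory light chain, Actn3 for the Z-disc, Atp2a1 for the calcium pump and Pvalb as a soluble calcium buffer. Fast fibres are further divided by their myosin into types IIa (Myh2), IIx (Myh1) and IIb (Myh4), the last being the fastest. Adult ventricle is not a usual source of these transcripts.

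Library totals ranged from 21403189 to 40627138 counts. The libraries were heart by their defining markers, with the main cardiac myosin Myh6 between 5021 CPM (counts divided by the library total after TMM scaling, per 1e6) in knockout library 1 and 24290 CPM in knockout library 4. Wild-type library 1 stood apart: its scaling factor was 1.302, against 0.922 to 1.01 in the other 9, and it held transcripts of several other tissues, given below beside the muscle genes. The targeted gene, Mapk13, had 292 counts in wild-type library 1 and 1 to 5 in the other wild-type libraries, against 9 to 15 in the knockout-labelled ones. It was therefore not lower in the knockout-labelled libraries than in wild-type libraries 2 to 5, which goes against the labels, and whether the counted part lies outside the deletion is not given. The groups are used as labelled, and every direction below is between labels. Results that rest on wild-type library 1 or knockout library 4 are given with and without them.

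The 3 fast myosin genes lie in a tandem cluster on chromosome 11 of GRCm39, with Myh2 at 67061838 to 67088989, Myh1 at 67089132 to 67116631 and Myh4 at 67128336 to 67151274, followed by the perinatal myosin Myh8 at 67167746 to 67199462. Their coding sequences are close copies, with identities from 87.92% (Myh4 and Myh8) to 91.09% (Myh1 and Myh2), so the split of reads among them is an estimate. The stretch of 60 coding bases that differs most among the 4 genes is shown because it is the kind of sequence that tells them apart. It starts at base 1003 of each coding sequence and is written 5′ to 3′, with the 27 positions that are not the same in all 4 in capitals (GENCODE transcripts, GRCm39).
Myh1: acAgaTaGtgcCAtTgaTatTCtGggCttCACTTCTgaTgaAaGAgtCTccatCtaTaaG
Myh2: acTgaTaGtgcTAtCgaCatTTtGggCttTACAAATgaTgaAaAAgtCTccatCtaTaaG
Myh4: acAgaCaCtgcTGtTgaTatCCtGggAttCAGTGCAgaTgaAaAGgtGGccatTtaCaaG
Myh8: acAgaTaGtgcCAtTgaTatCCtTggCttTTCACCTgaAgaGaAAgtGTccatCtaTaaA
From base 1321 the 4 genes share 60 coding bases with 0 differences, and a read from such a stretch fits each of them.
Shared by Myh1, Myh2, Myh4 and Myh8: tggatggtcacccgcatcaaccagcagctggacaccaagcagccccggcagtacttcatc
Of all windows of 100 bases in the main transcript, 7.82% in Myh1, 8.20% in Myh2, 3.89% in Myh4 and 6.61% in Myh8 occur unchanged in a transcript of another gene. In the other 7 members this share was 0%, so their counts do not depend on such a split at that length.

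The members do not sit together otherwise. Tnni2 (141995545 to 141998147), Tnnt3 (142048605 to 142070280), Mylpf (126807207 to 126813470) and Atp2a1 (126045013 to 126063423) are on chromosome 7, Tnnc2 (164619075 to 164621887) is on chromosome 2, Actn3 (4911215 to 4928529) on chromosome 19 and Pvalb (78075314 to 78091149) on chromosome 15. The 250 bases before the start of the canonical transcript are shown for the 2 fast myosins with the most counts and for the 2 members whose window holds CAGCTG, the E-box form that the myogenic factor MyoD is known to prefer. Capitals mark every CANNTG E-box on either strand (Myh1 has none), and sequences run 5′ to 3′ on the gene's strand in GRCm39.
Myh1, chr11:67090678-67090927, plus strand: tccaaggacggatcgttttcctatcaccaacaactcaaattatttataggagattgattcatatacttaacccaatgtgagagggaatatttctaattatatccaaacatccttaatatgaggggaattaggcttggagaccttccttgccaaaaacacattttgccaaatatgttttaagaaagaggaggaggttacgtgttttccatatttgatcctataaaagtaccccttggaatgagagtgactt
Myh4, chr11:67131173-67131422, plus strand: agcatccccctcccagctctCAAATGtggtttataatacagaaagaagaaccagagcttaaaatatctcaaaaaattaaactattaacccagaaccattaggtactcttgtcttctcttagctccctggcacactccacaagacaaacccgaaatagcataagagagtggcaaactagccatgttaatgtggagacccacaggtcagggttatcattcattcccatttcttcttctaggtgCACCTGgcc
Tnnt3, chr7:142052170-142052419, plus strand: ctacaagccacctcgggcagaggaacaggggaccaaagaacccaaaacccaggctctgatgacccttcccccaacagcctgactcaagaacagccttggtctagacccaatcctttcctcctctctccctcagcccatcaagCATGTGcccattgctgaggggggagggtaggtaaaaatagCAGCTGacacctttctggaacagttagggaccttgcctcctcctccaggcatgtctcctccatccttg
Mylpf, chr7:126810530-126810779, plus strand: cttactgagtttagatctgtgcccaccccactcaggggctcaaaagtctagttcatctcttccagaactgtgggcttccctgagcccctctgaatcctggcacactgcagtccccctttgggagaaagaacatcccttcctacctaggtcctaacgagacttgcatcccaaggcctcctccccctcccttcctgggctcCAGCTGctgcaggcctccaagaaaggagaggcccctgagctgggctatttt
Counting both strands, CANNTG was present in 6 of the 10 members' windows and in 64.8% of 21770 protein-coding windows of the same length. CAGCTG, which is also counted among the CANNTG matches, was present in 2 of 10 and in 11.9% of all windows. TATAAA was present in 4 of 10 and in 11.9%, and the MEF2 motif in 2 of 10 (Myh1 and Pvalb) and in 2.79%. These matches are letters only and were not measured as binding sites. The windows printed for Myh1, Myh4, Tnnt3 and Mylpf lie inside the gene spans given, downstream of the first annotated base. They need not be the promoters in use.

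Wild-type library 1 held by far the most fast muscle RNA. The 10 genes summed to 33726 counts there (741 CPM, or 0.0946% of that library's total), against 60 to 120 counts in the other wild-type libraries and 76 to 438 in the knockout-labelled ones. In CPM the sums were 3.07, 2.14, 2.89 and 2.60 in wild-type libraries 2 to 5 and 11.3, 5.84, 7.04, 14.2 and 2.28 in knockout libraries 1 to 5. Knockout library 4 was second of the 10, knockout library 1 came next, and knockout library 5 lay within the range of wild-type libraries 2 to 5. Fewer muscle cells and less RNA per cell cannot be told apart in bulk tissue. For 9 of the 10 members wild-type library 1 was the highest library, the exception being Myh2, and for all 10 members knockout library 5 was the lowest of its group.

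**Figure D1:**
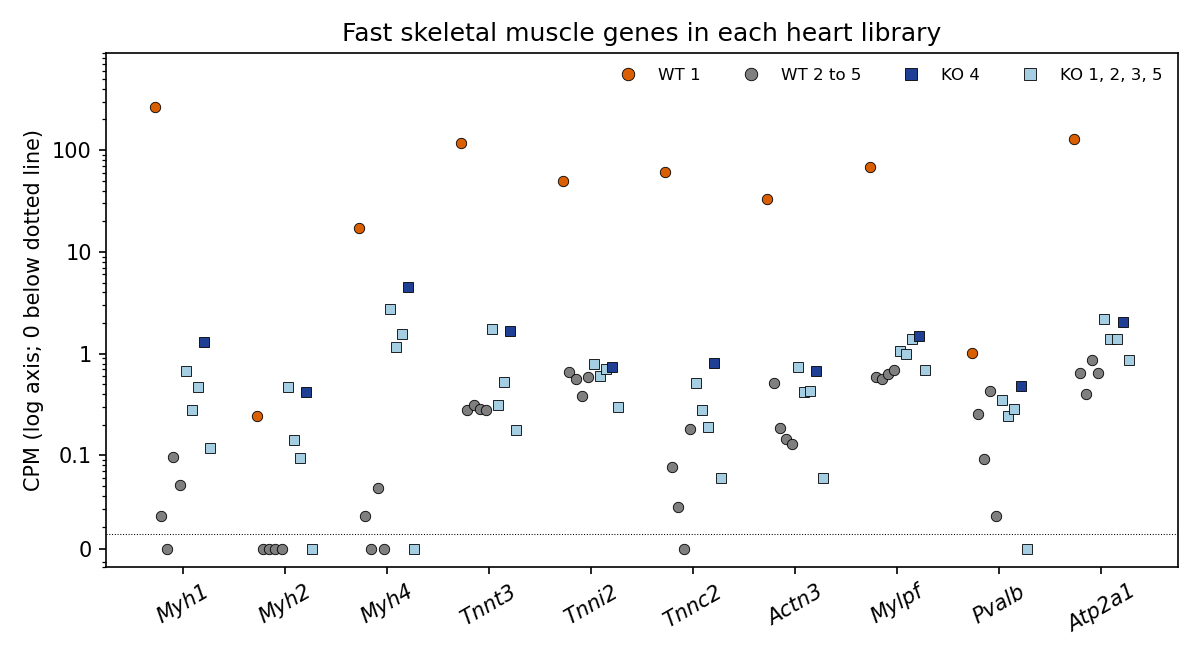
CPM of each of the 10 genes (log axis, values of 0 below the dotted line) in each library, with circles for libraries labelled wild type (WT) and squares for those labelled knockout (KO). WT library 1 is highest for every gene but Myh2, and among the other 9 libraries KO library 4 or KO library 1 is highest for every gene.

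Among the myosin motors, Myh1 (type IIx) had 12002 counts in wild-type library 1, then 1, 0, 2 and 2 in wild-type libraries 2 to 5, and 17, 8, 10, 40 and 4 in knockout libraries 1 to 5. On the CPM scale wild-type library 1 stood at 264, which is 203 times the next library, knockout library 4 at 1.298. Leaving wild-type library 1 aside, each knockout-labelled library lay above each wild-type-labelled one, although the lowest pair (0.120 and 0.0962 CPM) rests on 4 and 2 counts. Among tested genes 1.36% had this order in the same libraries. Myh1 did not reach the expression filter and is not among them.

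Myh4 (type IIb) had 782 counts in wild-type library 1, then 1, 0, 1 and 0 in wild-type libraries 2 to 5, and 70, 33, 33, 140 and 0 in knockout libraries 1 to 5. Its levels were 17.2 CPM in wild-type library 1, 4.54 in knockout library 4 and 2.75 in knockout library 1, so here wild-type library 1 exceeded the next library only 3.78 times. A count of 0 in knockout library 5 allows up to 0.0898 CPM. The groups overlapped, because knockout library 5 was at 0 and wild-type library 1 was the highest.

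Myh2 (type IIa) was near the detection limit throughout, with 11 counts in wild-type library 1, 0 in each of the other wild-type libraries, and 12, 4, 2, 13 and 0 in knockout libraries 1 to 5. It was the member that wild-type library 1 did not lead, at 0.242 CPM against 0.472 in knockout library 1 and 0.422 in knockout library 4.

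The mixture of myosins differed between the libraries with many of these counts. Over Myh1, Myh2, Myh4 and Myh8, which belongs to the perinatal fibre programme and is not one of the 10 genes, wild-type library 1 held 28891 counts. Of these 55.7% were Myh8 (95% exact binomial interval 55.1 to 56.3), 41.5% Myh1 (41.0 to 42.1), 2.71% Myh4 (2.52 to 2.90) and 0.0381% Myh2 (0.0190 to 0.0681). In knockout library 4, Myh4 made up 72.2% of 194 counts (65.3 to 78.3), Myh1 20.6% (15.2 to 27.0), Myh2 6.70% (3.62 to 11.2) and Myh8 0.515% (0.0130 to 2.84). Knockout libraries 1, 2 and 3 also had Myh4 in front, at 70.7% of 99 counts (60.7 to 79.4), 67.3% of 49 (52.5 to 80.1) and 70.2% of 47 (55.1 to 82.7). Knockout library 5 had 8 counts of the 4 genes and wild-type libraries 2 to 5 had 3 to 5 each, too few to give a mixture. These intervals cover counting error only, compare libraries and not genotypes, and take the division of shared reads as given.

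**Figure D2:**
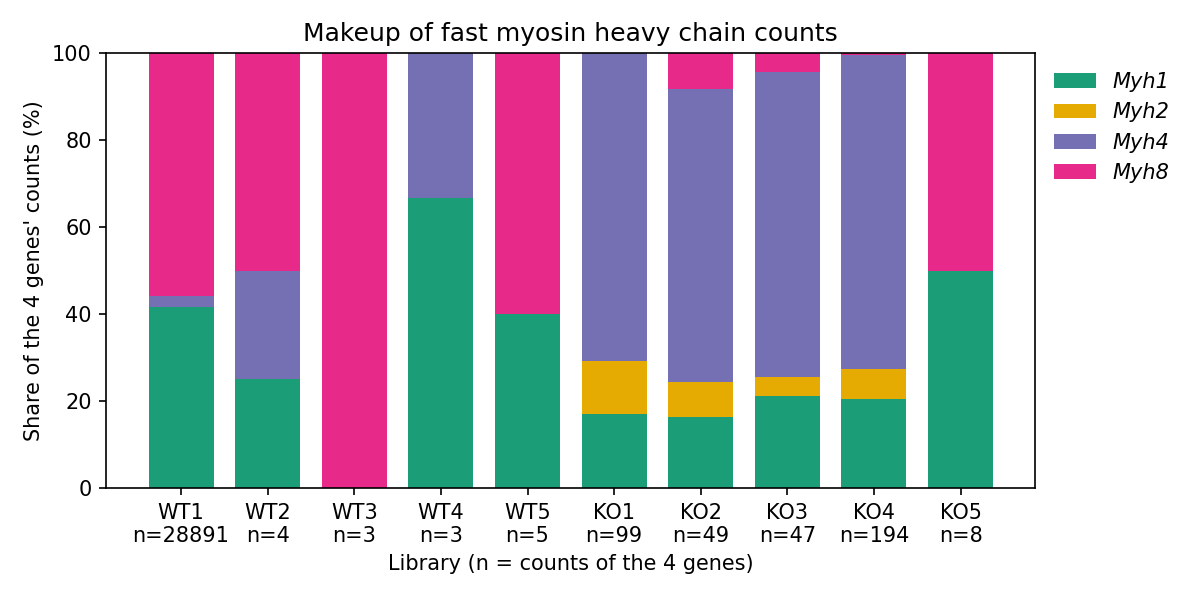
Share of the summed counts of Myh1, Myh2, Myh4 and Myh8 held by each gene (percent, stacked bars) in each library, with the number of counts under each bar. Myh8 and Myh1 fill the bar of WT library 1, whereas Myh4 holds 67.3% to 72.2% in KO libraries 1 to 4, and the bars with 3 to 8 counts carry little information.

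Among the troponin genes wild-type library 1 was highest for all 3, followed by knockout library 1 for Tnnt3 and Tnni2 and by knockout library 4 for Tnnc2. Tnnt3, the tropomyosin-binding subunit, had 5367 counts in wild-type library 1, then 11, 10, 6 and 11 in wild-type libraries 2 to 5, and 44, 9, 11, 52 and 6 in knockout libraries 1 to 5. Knockout libraries 1 and 4 stood at 1.73 and 1.69 CPM, above the other knockout-labelled libraries at 0.180 to 0.524 and wild-type libraries 2 to 5 at 0.281 to 0.311, which overlapped.

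Tnnc2, the calcium-binding subunit, had 2805 counts in wild-type library 1, then 3, 1, 0 and 7 in wild-type libraries 2 to 5, and 13, 8, 4, 25 and 2 in knockout libraries 1 to 5. Its highest level outside wild-type library 1 was 0.811 CPM in knockout library 4, and the groups overlapped with or without wild-type library 1. Tnni2, the inhibitory subunit, had 2248 counts in wild-type library 1 (49.4 CPM) and differed least among the rest, from 0.385 to 0.665 CPM in wild-type libraries 2 to 5 and from 0.299 to 0.787 CPM in the knockout-labelled ones.

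Mylpf, the fast regulatory light chain, had 3141 counts in wild-type library 1, then 23, 18, 13 and 27 in wild-type libraries 2 to 5, and 27, 28, 29, 46 and 23 in knockout libraries 1 to 5. Outside wild-type library 1 the highest level was 1.49 CPM in knockout library 4, and knockout library 5 at 0.689 CPM overlapped wild-type libraries 2 to 5 at 0.559 to 0.695. Actn3, the fast-fibre α-actinin of the Z-disc, had 1499 counts in wild-type library 1 (32.9 CPM) and 2 to 21 in the other 9 libraries.

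Of the calcium-handling members, Atp2a1 (the pump SERCA1) had 5825 counts in wild-type library 1, then 25, 13, 18 and 25 in wild-type libraries 2 to 5, and 56, 40, 29, 63 and 29 in knockout libraries 1 to 5. Wild-type library 1 stood at 128 CPM, 58.1 times the next library. Without it, all 5 knockout-labelled libraries lay above all 4 wild-type-labelled ones, by a narrow margin (lowest 0.868 against highest 0.866 CPM). Such an order held for 1.36% of all tested genes in the same libraries. Pvalb, which some neurons also use, had 46 counts in wild-type library 1 and 0 to 15 elsewhere.

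The fast forms remained a small part of each contractile protein's transcripts even where they were highest. Per kilobase of transcript, the fast form made up 11.1% of troponin C transcripts in wild-type library 1 (Tnnc2 at 81.9 and Tnnc1 at 658 CPM per kilobase), 7.28% of α-actinin (Actn3 with Actn2), 6.17% of troponin I (Tnni2 with Tnni3) and 5.55% of regulatory light chain (Mylpf with Myl2). The share was 5.99% for myosin heavy chain, taking Myh1, Myh2, Myh4 and Myh8 together against Myh6 and Myh7, 2.61% for troponin T (Tnnt3 with Tnnt2) and 2.10% for the calcium pump (Atp2a1 with Atp2a2). In the other 9 libraries these shares never passed 0.114%, a value reached by α-actinin, and the myosin share there was 0.000650% to 0.0313%. Knockout library 4 reached 0.0556% for troponin C and 0.0235% for myosin, below knockout library 1 at 0.0577% and 0.0313%. In knockout library 4 Myh6 was the highest of all libraries at 24290 CPM and Myh7 the lowest at 2273.

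**Figure D3:**
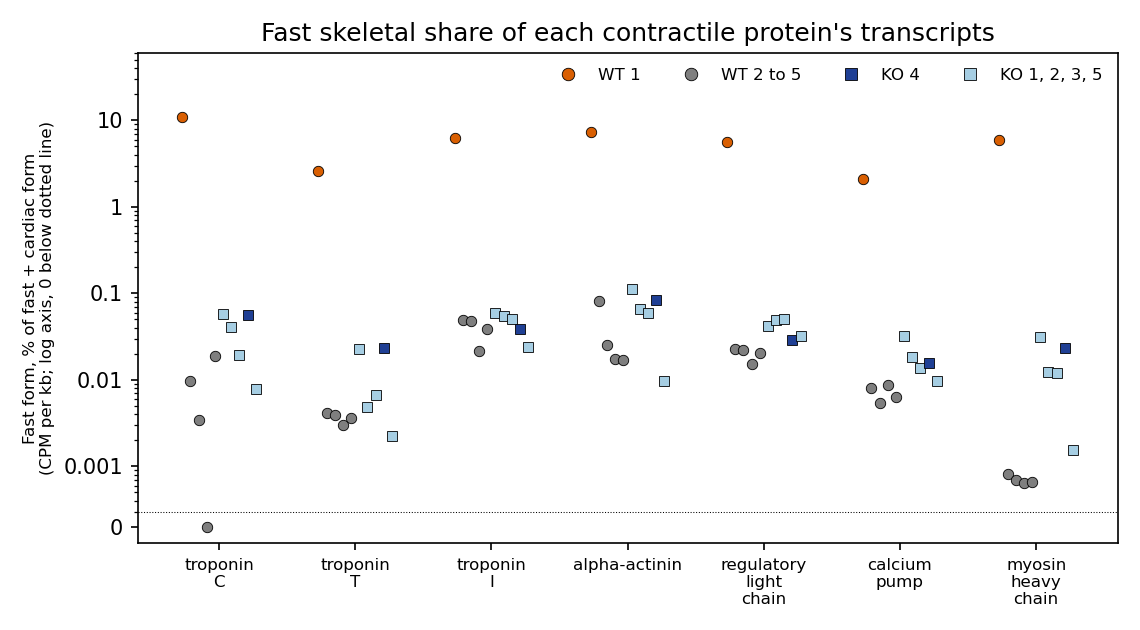
Fast skeletal form as a percent of fast plus cardiac form (CPM per kilobase of transcript, log axis, 0 below the dotted line) for 7 contractile and calcium-handling proteins in each library. WT library 1 lies between 2.10% and 11.1% for all 7, and the other libraries lie at or under 0.114%.

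Between genotypes, no fast muscle gene passed the test, and the sign of the difference turned when wild-type library 1 was left out. The expression filter kept 6 of the 10 members (Myh4, Tnnt3, Tnni2, Actn3, Mylpf and Atp2a1) among 16700 genes. In edgeR's quasi-likelihood test on all 10 libraries 0 of the 6 were called at an adjusted p of 0.05, where 0.353% of all tested genes were, and 5 of the 6 had an unadjusted p under 0.05, as did 6.86% of all tested genes. Myh4 passed the filter through wild-type library 1 and 4 knockout-labelled libraries. All 6 estimates were negative, that is lower in the knockout-labelled group, with a median log2 fold change of -3.97 beside -0.0136 over all tested genes. Tnnt3 had -4.76 with a standard error of 2.04 (adjusted p = 0.714 by edgeR), Atp2a1 -4.06 with 1.78 (adjusted p = 0.717) and Myh4 -0.81 with 1.70 (adjusted p = 0.939). DESeq2 called 0 of the 6, with 0.707% of all tested genes called, but gave a p for 1 of them, Myh4 (adjusted p = 0.984 by DESeq2), and none for the other 5. Limma voom with quality weights called 0 of the 6, with 0.527% of all genes called and 1 of the 6 at an unadjusted p under 0.05, as were 8.44% of all genes, and turned the estimates of 5 of the 6 positive on the same 10 libraries. With all 10 libraries no member had every knockout-labelled library above every wild-type-labelled one, which held for 0.88% of tested genes.

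Without wild-type library 1, edgeR again called 0 of the 6, where 0.446% of all genes were called, and 4 of the 6 had an unadjusted p under 0.05, as did 6.02% of all tested genes. Myh4, Tnnt3 and Actn3 passed the filter there through the 4 knockout-labelled libraries that reached its level, with 0, 1 and 1 wild-type-labelled libraries doing so, and their positive estimates are therefore no support for a direction. Tnni2, Mylpf and Atp2a1 reached that level in all 4 remaining wild-type-labelled libraries. Myh4 then had a log2 fold change of 6.68 with a standard error of 1.51 (adjusted p = 0.232 by edgeR, n = 4 and 5), which against wild-type libraries holding 0 or 1 count depends on the prior count and is no bound. Atp2a1 had 1.32 with 0.31 (adjusted p = 0.185), Tnnt3 1.60 with 0.63 (0.723), Actn3 0.87 with 0.60 (0.908), Mylpf 0.85 with 0.27 (0.516) and Tnni2 0.16 with 0.32 (0.982). Atp2a1 was the tested member whose groups did not overlap, and 1.36% of all tested genes had every knockout-labelled library above every wild-type-labelled one in these 9. Leaving out knockout library 4 as well removed Myh4 and Tnnt3 from the tested genes and gave Atp2a1 1.21 (adjusted p = 0.216), with 0 of 4 members called and 0.521% of all genes called. Its groups again did not overlap there, which held for 2.44% of all tested genes. The sum of Myh1, Myh2, Myh4 and Myh8, which does not depend on how reads were divided among these 4, had a log2 fold change of -5.47 with a standard error of 2.49 (adjusted p = 0.716 by edgeR) and of 4.60 with 0.90 without wild-type library 1 (adjusted p = 0.106). Wild-type libraries 2 to 5 held 3 to 5 counts of these 4 genes each. Without wild-type library 1 the sum therefore also passed the filter through the knockout-labelled libraries. Its positive value there depends on the prior count and is no support for a direction.

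**Figure D4:**
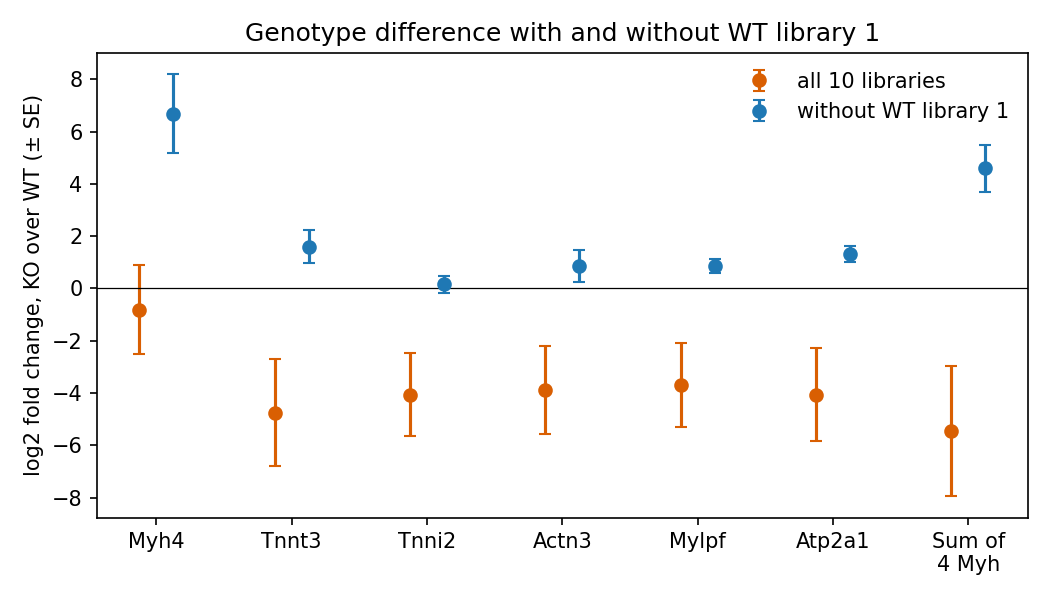
log2 fold change, knockout-labelled over wild-type-labelled (y axis, bars are standard errors), for the 6 tested fast muscle genes and the sum of 4 myosin genes, with all 10 libraries and without WT library 1. Every point lies below 0 with all libraries and above 0 without WT library 1, and none passed the adjusted threshold. Without WT library 1, Myh4, Tnnt3, Actn3 and the myosin sum passed the filter through the knockout-labelled libraries.

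Myh1, Myh2, Tnnc2 and Pvalb did not reach the filter. With every counted gene tested they had log2 fold changes of -6.52, 1.97, -5.04 and -0.42 (adjusted p = 0.645, 0.645, 0.645 and 0.919 by edgeR), where 0.155% of all genes were called. Myh2 was thus the member that pointed up in this edgeR fit of all 10 libraries.

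Of 10 further genes of the fast sarcomere, 6 were highest in wild-type library 1. Of the 10, 7 were tested, 0 were called, and all 7 estimates were below 0 with a median of -0.56, then 2 above and 5 below without wild-type library 1 (median -0.04). Neb, the thin-filament ruler nebulin, stood at 83.3 CPM in wild-type library 1 against 8.05 to 16.4 in wild-type libraries 2 to 5 and 11.5 to 23.1 in the knockout-labelled ones. Myl1, an essential light chain, stood at 56.1 CPM against 11.3 to 15.1 and 8.76 to 13.3. Among the rest of the 6, Mybpc2 was at 51.3 CPM against 6.47 to 13.1 in the other 9, Mylk2 at 18.2 against 0.129 to 0.779, Myoz1 had 529 counts against 1 to 7 and Mybph 24 against 0 to 3. Klhl41 and Myot, sarcomere-associated genes that were well expressed in every library, were not raised in wild-type library 1, at 103 CPM against 107 to 123 and 92.1 to 129, and at 78.5 CPM against 53.7 to 81.6 and 27.9 to 76.4. The summed level of these 10 genes in knockout library 4, 165 CPM, was the lowest of all libraries.

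Of 10 genes that couple the membrane signal to calcium release in skeletal muscle, 6 were highest in wild-type library 1. Of the 10, 7 were tested and 0 called, with a median of 0.21 and of 0.26 without wild-type library 1. The skeletal channel subunits Cacna1s and Scn4a were at 11.5 and 14.3 CPM in wild-type library 1, within or near the 12.3 to 15.4 and 14.0 to 21.7 CPM of wild-type libraries 2 to 5. Clcn1, the muscle chloride channel, was at 3.47 CPM in wild-type library 1 and highest in knockout library 4 at 9.96. Of the 6, Ryr1, the skeletal calcium release channel, had 955 counts in wild-type library 1 and 4 to 19 in the other 9. Casq1, the calcium store protein calsequestrin, was at 9.36 CPM against 1.09 to 2.56, Stac3 at 2.26 against 0.385 to 0.845, Jsrp1 at 1.82 against 0.106 to 0.551, Sypl2 at 1.49 against 0.0898 to 0.428, and Cacng1 had 115 counts against 0 or 1. Muscle enzyme genes, several of which heart also uses, differed among themselves. In wild-type library 1 Pygm, the muscle glycogen phosphorylase, was at 436 CPM against 579 to 824 in the others and Ckm, the muscle creatine kinase, at 327 against 305 to 969, the last value in knockout library 4. Ampd1, the muscle AMP deaminase, was highest in wild-type library 1, with 128 counts against 0 to 6, and Phkg1, a phosphorylase kinase subunit, was at 42.9 CPM there against 14.2 to 49.0. Of 8 such genes 7 were tested and 0 called, with a median of -0.03 and of -0.14 without wild-type library 1.

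Of 5 slow-fibre genes, 2 were highest in wild-type library 1, Tpm3 at 80.7 CPM against 40.4 to 52.9 in the other 9 and Tnni1, the slow troponin I, at 0.813 against 0.0772 to 0.486. Tnnt1, the slow skeletal troponin T, was lowest there, at 4.55 CPM against 7.62 to 11.8. Of these 5 genes 4 were tested and 0 called (median 0.09, and 0.08 without wild-type library 1). Of 6 that heart shares all 6 were tested and 0 called. All 6 estimates were above 0 (median 0.13), then 3 above and 3 below without wild-type library 1 (median -0.005). The 7 cardiac counterparts of the members were all tested and 0 called. All 7 estimates were above 0 (median 0.08), then 2 above and 5 below without wild-type library 1 (median -0.08). The embryonic myosin Myh3 had 0 counts in wild-type library 1 and 9 in knockout library 4, its highest. Lineage regulators were detected in wild-type library 1 at low levels: Myf6, a factor of mature skeletal fibres, had 81 counts there and 0 in each of the other 9, where a count of 0 allows 0.0767 to 0.144 CPM. Myod1 and Myog had 11 and 13 counts there and at most 1 and 2 elsewhere, and Pax7, which marks satellite cells, had 0 to 3 in every library. None of the 7 regulators was tested. Of 8 neuromuscular junction genes 3 were tested and 0 called (median 0.28, and 0.27 without wild-type library 1). Musk, the muscle kinase of the junction, was at 1.45 CPM in wild-type library 1 against 0.0481 to 0.317 elsewhere.

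Markers of other tissues moved with the fast muscle genes in wild-type library 1, and their part in the result was not tested. The squamous keratins Krt13 and Krt4, abundant in the lining of the oesophagus and mouth, stood at 1650 and 1208 CPM there and at 0 to 0.289 and 0 to 0.187 CPM in the other 9. All 5 keratins of that list were highest in wild-type library 1, with a summed 3023 CPM against 0.0649 to 2.11 elsewhere. The same held for all 6 airway and alveolar genes (860 CPM, led by Scgb1a1 at 732, against 0.0952 to 76.3, the highest in wild-type library 3), all 5 fat cell genes (275 CPM against 0.270 to 8.11, led by Cfd and Adipoq at 120 and 87.8 in wild-type library 1), all 3 brown fat genes (112 against 22.2 to 40.1, with Ucp1 at 45.4 and Cidea at 62.6) and all 5 atrial genes (1309 against 34.8 to 281, with Nppa at 630 and Myl4 at 252). All 6 mesothelial genes (95.8 against 12.4 to 34.0), all 4 Schwann cell genes (34.4 against 6.28 to 10.6, led by Mbp at 18.5), 3 of 4 neuronal genes (8.37 against 0.0481 to 0.951) and 3 of 4 cartilage genes (6.68 against 0.373 to 1.15) were also highest there. With all 10 libraries edgeR called 0 genes of these lists, of which none of the squamous and airway genes passed the filter. DESeq2 called the atrial genes Myl7 (adjusted p = 1.7e-05), Myl4 (9.7e-04) and Dkk3 (0.038) and the mesothelial Upk3b (0.015), all lower in the knockout-labelled group, and limma voom called Upk3b (adjusted p = 0.034). Of all tested genes DESeq2 called 0.707% and limma voom 0.527%. Myl7 and Dkk3 were at 173 and 150 CPM in wild-type library 1 and at 25.2 and 23.9 in wild-type library 2. In wild-type libraries 3 to 5 they were at 0.437 to 1.71 and 2.37 to 4.41 CPM. Without wild-type library 1 edgeR called 0 atrial and 0 mesothelial genes (Myl4 adjusted p = 0.686, Upk3b 0.383), and DESeq2 and voom were not run.

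Knockout library 4 had the lowest squamous sum of all libraries, 0.0649 CPM, with Krt4, Krt13, Krt5 and Krt6a at 0 counts and Krt14 at 2. Knockout library 3, at 0.0952 CPM, had 1 count each of Krt4 and Krt14, so the lowest place is not resolved. Knockout library 4 was the highest of the knockout-labelled libraries for the fat cell sum (2.89 CPM against 0.270 to 1.10), the airway sum (0.876 against 0.0952 to 0.528, with 21 counts of Scgb1a1 against 0 to 5) and the atrial sum (129 against 41.7 to 63.4, of which Nppa made 125). The other atrial genes did not share the rise of Nppa. In knockout library 4 Sln had 0 counts, and Myl4, Dkk3 and Myl7 were at 1.20, 2.40 and 0.357 CPM. The other knockout-labelled libraries had 0.857 to 1.10, 2.40 to 2.92 and 0.0787 to 0.329 CPM. The fat cell sums, 1.10, 0.387, 1.09, 2.89 and 0.270 CPM in knockout libraries 1 to 5, had the same order of libraries as Myh4. The sums of libraries 1 and 3 were nearly equal (1.102 and 1.095 CPM), so their order is not resolved. This match was seen afterwards and was not tested. Haemoglobin was also highest in library 4 and lowest in library 5 of that group: Hba-a1 had 15, 16, 19, 30 and 4 counts in knockout libraries 1 to 5, against 87, 3, 3, 0 and 5 in wild-type libraries 1 to 5. Hbb-bs had 18, 19, 18, 29 and 1 counts in knockout libraries 1 to 5 and 22, 4, 4, 0 and 1 in wild-type libraries 1 to 5. On the CPM scale knockout libraries 3 and 4 were close, at 0.904 and 0.973 for Hba-a1 and at 0.857 and 0.941 for Hbb-bs. The part of the fat cell, airway, Nppa and red cell transcripts in the muscle values was not tested. Without wild-type library 1, Hba-a1 had a log2 fold change of 2.86 with a standard error of 0.64 (adjusted p = 0.132 by edgeR) and Hbb-bs of 3.14 with 0.81 (adjusted p = 0.265). Both genes passed the filter there through knockout libraries 1 to 4, with 0 to 5 counts in wild-type libraries 2 to 5. Their positive estimates are therefore no support for a direction. Haemoglobin genes have near-identical copies, so these counts are uncertain. The sum of the thymocyte genes was highest in knockout library 2 (6.06 CPM, against 0 to 0.945 in the others, with Rag1 at 2.89), whose summed fast muscle level was 5.84 CPM. Ptcra of that list was an exception, with 1 count in knockout library 2 against 2 in knockout library 3 and 2 in wild-type library 2.

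**Figure D5:**
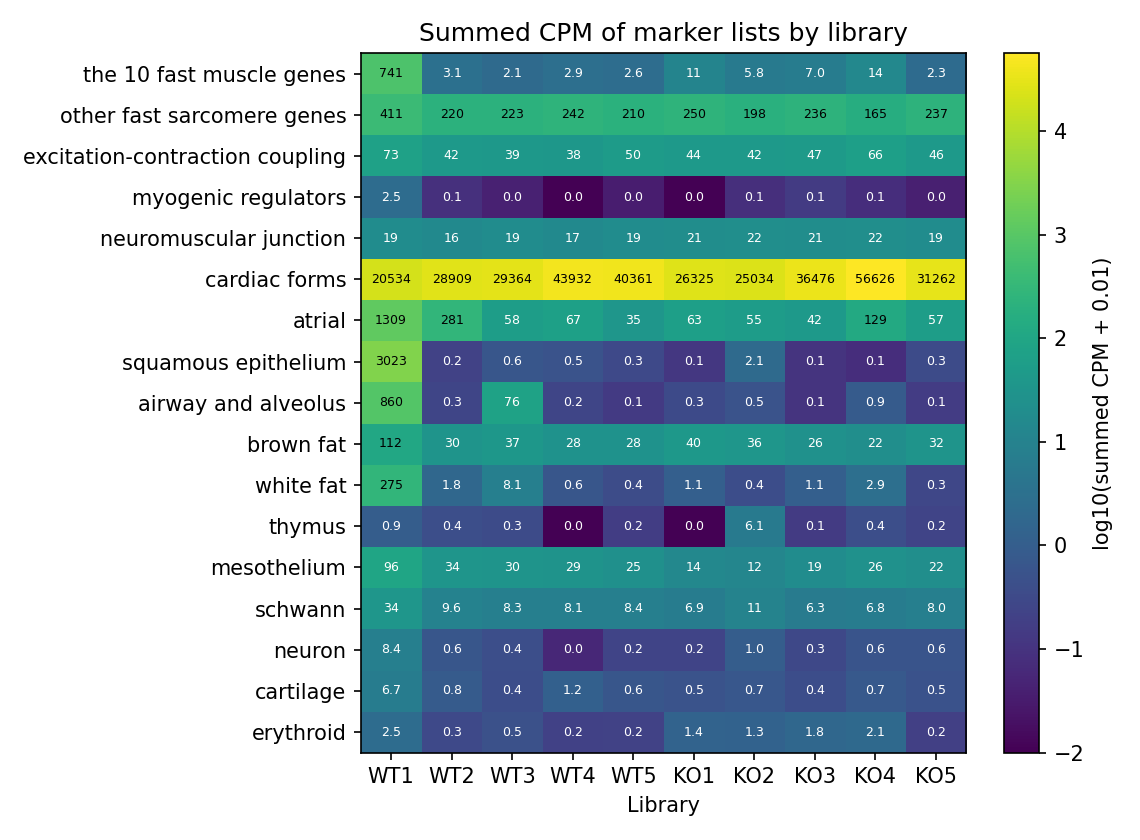
Summed CPM of each marker list (rows, value printed in each cell, colour on a log10 scale) in each library (columns). The fast muscle, squamous, airway, fat and atrial rows are brightest in WT library 1, and KO library 4 is second for the row of the 10 genes. KO library 4 is also lowest in the squamous row, where its value rests on 2 counts and the order is not resolved.

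By Pearson correlation of log2(CPM + 1) with the summed fast muscle level over the 10 libraries, given as a description, the tested genes most like the members were Mapk13 (r = 0.984), the fatty acid desaturase Scd1 (0.976), AA986860 (0.974), the oestrogen receptor Esr1 (0.973), the epithelial splicing factor Esrp2 (0.973) and the epithelial transcription factor Grhl2 (0.972), followed by Reps2, Acat2, Kcnmb1 and Irag1 (0.969 to 0.971). Each was highest in wild-type library 1, which sets these values. Mapk13 stood at 6.41 CPM there, at 0.0481 to 0.128 CPM in wild-type libraries 2 to 5 and at 0.270 to 0.487 CPM in the knockout-labelled libraries. Its knockout-group extremes were in libraries 4 and 5, as for Myh4. Knockout libraries 1, 3 and 4 were nearly equal for Mapk13 (0.472, 0.476 and 0.487 CPM on 12, 10 and 15 counts), so the highest is not resolved. Mybpc2 was the closest gene of the fixed muscle lists (r = 0.936, rank 86). Over the 8 libraries other than wild-type library 1 and knockout library 4 the closest were Rps15a-ps7 (0.966), Gm43863 (0.950), Gm29394 (0.932), Rps18-ps6 (0.931), Gm75278 (0.930), Asxl3 (0.929), Sh2d3c (0.927), Sumo2 (0.925), Gm6789 (0.925) and 2900060N12Rik (0.921), none of them a muscle gene of the lists. The points share library depth and scaling, and the ribosomal pseudogenes can share reads with their parents.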

How the data were processed

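Hearts were placed in an RNA stabiliser and a company prepared the libraries, per the labels' protocols, which name STAR 2.5.2 and the GENCODE GRCm39 genome for alignment. The submitters' processing notes list RSEM 1.3.0. Values are expected counts, which the authors deposited as whole numbers by Ensembl gene identifier, with 1 column per sample. For annotation release, strand and trimming, the setting is not given in the sources used here. No batch is labelled, and nothing further is said of how samples are separate, so p-values reflect only the spread among these samples, which may be technical.

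Symbols and positions came from GENCODE M39 (GRCm39), which held 78168 of 78298 identifiers. The main test was edgeR 4.0.16 (quasi-likelihood, TMM, minimum count 10, robust, R 4.3.3), with Benjamini-Hochberg adjustment over all tested genes at 0.05. It was tested on simulated data. A standard error is the size of the log2 fold change over the root of its F statistic. CPM used TMM-scaled totals, and CPM per kilobase the canonical transcript. A count of 0 was given a limit of 3 counts. Pairs of libraries within a group differed beyond sampling noise (chi-square per degree of freedom 8.59 to 158). Alternatives were DESeq2 1.42.0, limma 3.58.1 voom, other scalings and filters, and leaving out libraries. Coding sequences were aligned with MAFFT 7.526.

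Members, lists and alternatives were chosen with earlier results of these data known. Named genes were the members, up to 4 genes per muscle list by mean CPM, 2 per other list by highest CPM, and the 10 closest in pattern. Genes named outside this rule (Ryr1, Casq1, Stac3, Jsrp1, Sypl2, Cacng1, Mybpc2, Mylk2, Myoz1, Mybph, Ampd1, Phkg1, Tnni1, Myl7, Dkk3, Krt5, Krt6a) were chosen after their values were seen.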

Additional observations from a re-analysis of the deposited data

Results flagged for a closer look

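Among the 5 wild-type-labelled libraries, library 1 lay far above the rest for 9 of the 10 fast muscle genes. The gap from that library to the next, divided by the group's whole range of CPM, was 0.9996 for Myh1, 1.0 for Myh2, 0.997 for Myh4, 0.9997 for Tnnt3, 0.994 for Tnni2, 0.997 for Tnnc2, 0.988 for Actn3, 0.998 for Mylpf and 0.996 for Atp2a1, where Dixon's critical value for 5 samples is 0.71. The genes were chosen for their high level in that library, so these ratios are a description and no test, and the rate of 1 in 20 groups that chance gives does not apply to them. Pvalb stood at 0.586, under that value. For Myh2 the ratio rests on 11 counts against 0 in each other library of the group. In the knockout-labelled group the largest ratio was 0.614, for Tnni2.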

How the results depend on the processing

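The count of members called was 0 in all 18 fits, and the lowest adjusted p of any member in any of them was 0.185 (Atp2a1 by edgeR without wild-type library 1). Leaving out 1 library at a time gave log2 fold changes of -4.20 to 0.87 for Actn3, -4.37 to 1.32 for Atp2a1, -1.37 to 6.68 for Myh4, -4.00 to 0.85 for Mylpf, -4.36 to 0.16 for Tnni2, -5.16 to 1.60 for Tnnt3, -6.02 to 4.60 for the myosin sum and -4.36 to 1.10 for the members' median. Each positive end is the fit without wild-type library 1, where Myh4, Tnnt3, Actn3 and the myosin sum passed the filter through the knockout-labelled libraries. Voom with quality weights, which gave libraries unequal weight, also turned Actn3 (0.16), Atp2a1 (1.02), Myh4 (4.12), Mylpf (0.49), Tnnt3 (0.48), the myosin sum (3.13) and the median (0.48), but not Tnni2. Without wild-type library 1 and knockout library 4 together the values were 0.66 for Actn3, 1.21 for Atp2a1, 0.72 for Mylpf, 0.073 for Tnni2 and 0.69 for the median, and Myh4, Tnnt3 and the myosin sum were not tested. The cause of these changes was not tested. Scaling by library totals alone moved the median of all genes from -0.0136 to -0.116 and turned no member. Over all genes edgeR called 59 and DESeq2 118. Wild-type library 1 stayed first and knockout library 4 second by summed level per kilobase, without Atp2a1 and Pvalb, and by totals alone. No paired analysis was made because the labels pair no wild-type library with a knockout library. Depth limits Myh1, Myh2, Myh4, Tnnc2 and Pvalb outside wild-type library 1, where several libraries hold 0 to 4 counts. Actn3 was also low in places, with 3 counts in wild-type library 4 and 2 in knockout library 5.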
